A study of Mus musculus with 5480 samples.

Results

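Vascular smooth muscle cells of the mouse lung were compared between postnatal day 21 (P21) and postnatal day 1 (P1) in normal air, with postnatal day 7 (P7) as the middle point. The members were the cells that the authors' subtype label calls vascular smooth muscle. The label was held by 201 of the 5480 cells of the series, with 31 cells at P1, 58 at P7 and 52 at P21 in normal air, so that the comparison of P21 with P1 rested on 83 cells. The series holds single cells of distal lung, sorted by flow cytometry and labelled mesenchymal, from 10 mice in 5 groups of 1 female and 1 male. Embryonic day 18.5 in normal air gave 7 and 9 vascular smooth muscle cells, too few for the fits. P7 in hyperoxia gave 22 in each mouse, which entered the age fits to estimate the residual spread and were otherwise not compared. Strain and genotype are not given in the sources used here, and the labels name no transgene. The title sets the study in neonatal lung development and the response to hyperoxia.

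Vascular smooth muscle forms the contractile layer of arteries and veins. It contracts through smooth muscle actin and myosin, and it also secretes elastin, fibrillins and collagens, which give the vessel wall its recoil and strength. In a growing vessel the muscle cells lay down much of this matrix, and in a mature vessel they mainly hold tone. Pericytes, the mural cells of capillaries, and airway smooth muscle are the related cell types in the lung.

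Each value is the number of reads of a gene summed over the vascular smooth muscle cells of a mouse and scaled to the library size (CPM). The female and male gave 15 and 16 cells at P1, 27 and 31 at P7, and 33 and 19 at P21, and the summed reads of the 8 fitted mice ran from 10539791 to 26955961. The largest cell held 13.7% and 15.7% of the reads of the P1 mice and 7.44% to 11.0% of those of the P7 and P21 mice. The P1, P7 and P21 males were sequenced in a shared run, apart from 3 cells at P7. The females were in a different run at each age, apart from 1 cell at P21 in a further run, so that age and run cannot be told apart in females. Those 3 cells of the P7 male and 1 cell of the P21 female came from a CD31 sort, and all other cells of the 6 mice from the mesenchymal sort. With 2 mice to an age the fits had 3 residual degrees of freedom. A summed level follows both how many cells use a gene and how much RNA each makes, which cannot be told apart in it.

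The label was checked against 8 markers of vascular smooth muscle. Acta2, Tagln, Myh11, Cnn1, Lmod1, Notch3 and Mustn1 were read in all 6 mice, and the list summed to 12369 to 30323 CPM. The last marker, Pln, had 1 read, at P21. Endothelial markers summed to 0.409 to 26.4 CPM in 5 mice and to 151 CPM in the P21 female, where Pecam1 was at 87.5 and Egfl7 at 56.8 CPM while Cdh5, Kdr and Emcn were at 0. The 7 epithelial markers summed to 17.4 to 63.3 CPM at P1 and P7 and to 0.344 and 0.117 CPM at P21. Immune, erythroid, mesothelial and glial lists stayed at or under 13.4 CPM. Markers of other mesenchymal cells were read throughout. The 6 airway smooth muscle markers were at 1463 to 3579 CPM and the 6 myofibroblast markers at 1236 to 5267 CPM, with their defining genes Hhip and Pdgfra under 1 CPM. The lists overlap: Mustn1 is on the vascular and the myofibroblast list, and Hhip on the airway and the myofibroblast list. The airway list also holds Actg2, which is abundant in the muscle cells, as given below. For 3 other lists both P21 mice were above both P1 mice. The 6 alveolar fibroblast markers summed to 388 and 677 CPM at P1, 847 and 515 at P7, and 1839 and 1559 at P21. Of them 2 had no read at P1 and 3 none at P7. Another, Limch1, was read in most vascular smooth muscle cells of all 6 mice, so the sum does not mark fibroblasts alone. The 8 pericyte markers summed to 1538 and 1941 CPM at P1, 794 and 1419 at P7, and 2115 and 3425 at P21. Of these markers Pdgfrb, Kcnj8 and Abcc9 were higher in both P21 mice, as given below. A single cell of each P21 mouse held 99.4% and 75.8% of the Kcnj8 reads and 77.5% and 85.2% of the Abcc9 reads. The sum is therefore not a rise of the list as a whole. The 6 adventitial fibroblast markers summed to 136 and 148 CPM at P1, 304 and 840 at P7, and 238 and 380 at P21. The part of these other markers in the results was not tested. The 8 cardiac muscle markers summed to 1187 to 2768 CPM, but 4 of them were under 1 CPM in all 6 mice and 5 had no read at P21. The list holds Actc1, which is described in the last section.

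Between P1 and P21, 10 genes passed the test for change in the muscle cells, and no gene of the contractile protein list was among them. So few of all genes passed that this says little about the contractile genes, whose levels are given below. Of 12417 genes tested, 7 were higher at P21 and 3 lower, which is 0.0564% and 0.0242% of them (edgeR quasi-likelihood test, adjusted p under 0.05), and 851 had an unadjusted p under 0.05. The genes that rose were Timp3, Pcolce2, Col8a1, Hspa1a, Chrdl1, Inmt and Steap4, and those that fell were Clca3a2, H19 and Fbn2. Nearly all Steap4 reads at P21 came from a single cell of each mouse, and Inmt was read in 8 of 52 cells at P21. Both P21 mice stood above both P1 mice in 17.8% of all tested genes and below them in 17.1%, and the median log2 difference was 0.08. DESeq2 called 859 genes, all 10 among them. Clca3a2 and H19 passed under each of the 18 alternatives, whereas without the female or without the male of P1 edgeR called no other gene. The number called was 5 without the P21 male, 25 without the P21 female, 16 without the P7 male and 19 without the P7 hyperoxia female. The excess of higher over lower calls was not stable: 10 were higher and 21 lower after thinning, 13 and 15 without a filter, 7 and 18 without the P21 female, and 1 and 4 without the P21 male. With only the mesenchymal sort 7 genes passed, and Pcolce2 (adjusted p = 0.116), Hspa1a (0.0529) and Col8a1 (0.0529) did not.

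**Figure D1:**
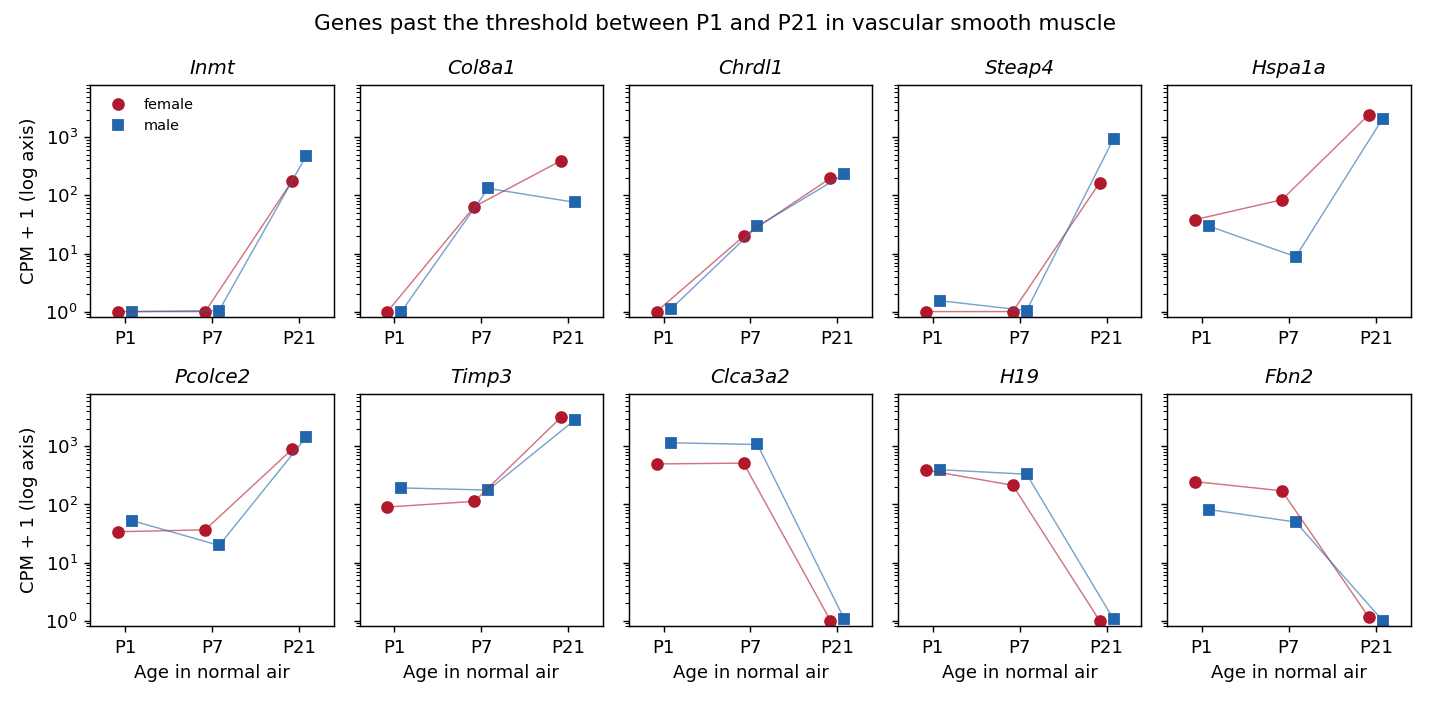
Level of the 10 genes past the threshold between P1 and P21, as CPM plus 1 on a log axis, by age; circles are females and squares males, and lines join different animals of a sex. Timp3, Pcolce2 and Hspa1a are highest in both P21 mice, while Clca3a2, H19 and Fbn2 lie at the bottom of the axis in both P21 mice.

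Timp3 binds to extracellular matrix and blocks the metalloproteinases that degrade it. It stood at 89.3 and 191.8 CPM in the female and male at P1, at 112.2 and 176.2 CPM at P7, and at 3199.8 and 2893 CPM at P21. The P21 mice were close together and far above the other 4. The mean went from 140.5 ± 72.5 to 3046 ± 217 CPM (SD, n = 2 mice), a rise of 4.54 on the log2 scale or 23.3-fold (SE 0.538, edgeR adjusted p = 0.0129). A read was found in 5 of 15 and 8 of 16 cells at P1, in 9 of 27 and 5 of 31 at P7, and in 30 of 33 and 17 of 19 at P21. With each cell thinned to 50000 reads the P21 counts were 29 and 16, so most cells of both mice had it. Timp4, an inhibitor of the same family, was at 636 and 923 CPM at P1, 179.2 and 308 at P7 and 54.4 and 112 at P21 (log2 -3.31, SE 0.563, edgeR adjusted p = 0.0923), which did not pass.

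Pcolce2 encodes an enhancer of the protease that trims fibrillar procollagens. It was at 32.9 and 51.7 CPM at P1, at 35.6 and 18.7 at P7, and at 892 and 1426 at P21. Both P21 mice were above the rest, by 4.77 on the log2 scale or 27.4-fold over P1 (SE 0.674, edgeR adjusted p = 0.0383). Reads came from 3 of 15 and 4 of 16 cells at P1, from 5 of 27 and 4 of 31 at P7 and from 27 of 33 and 13 of 19 at P21 (23 and 12 after thinning). Its relative Pcolce was at 196 and 851 CPM at P1 and at 242 and 391 at P21, and the ages overlapped.

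Col8a1, a short-chain collagen of vessel walls, had no read in the P1 cells. A count of 0 in 15 and 16 cells allows a share of cells with a read of up to 20.0% and 18.8%, which does not limit the cells that express the gene. The gene was at 63.3 and 131.1 CPM at P7 and at 398 and 75.0 CPM at P21, and these ages overlapped. Against a floor of 3 reads over the P1 group it was at least 1833-fold higher at P21 (counting error only, edgeR adjusted p = 0.049). That bound does not cover the sampling of cells. Cells with a read numbered 4 of 27 and 6 of 31 at P7 and 11 of 33 and 8 of 19 at P21. Chrdl1, a secreted inhibitor of bone morphogenetic proteins (BMPs), had 1 read at P1, was at 18.7 and 28.3 CPM at P7 and at 197.7 and 232 CPM at P21. In both sexes P7 lay between the other ages, but the P7 level rested on 1 cell a mouse. Reads came from 1 of 27 and 3 of 31 cells at P7, and 1 cell held 100% and 99.1% of them. The ratio of P21 to P1 was 4682 (95% interval 840 to 184970, counting error only; edgeR adjusted p = 0.0387), and 11 of 33 and 6 of 19 cells had a read at P21.

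Hspa1a encodes an inducible heat shock chaperone that helps proteins refold. It was at 37.3 and 28.6 CPM at P1, 83.2 and 7.81 at P7, and 2455 and 2108 at P21. Both P21 mice stood far above every younger mouse. The rise was 6.14 on the log2 scale or 70.5-fold (SE 0.892, edgeR adjusted p = 0.0387), with a read in 4 of 15 and 9 of 16 cells at P1 and in 27 of 33 and 16 of 19 at P21. The other heat shock genes given here were chosen after their values were seen, so they do not stand for the family, and they did not pass. The level of Hspa1b was 11.3 and 0 CPM at P1 and 87.0 and 144 CPM at P21, that of Hsp90aa1 185 and 306 and then 774 and 1131, and that of Dnajb1 152 and 293 and then 713 and 1276. Hspa1a and Hspa1b are near-identical copies, so the split of reads between them is uncertain.

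The promoters of this pair are shown because the copies are alike there too and because heat shock genes are known to be driven through heat shock elements. Each run goes from 250 bases before to 50 bases after the start, 5′ to 3′ along the gene, from RefSeq for build GRCm38.p6. Hspa1a lies at chr17:34972107-34972406 and Hspa1b at chr17:34959189-34959488, as annotated on the minus strand. Capitals mark a heat shock element, searched on both strands as GAANNTTC or TTCNNGAA, which 15.1% of 32851 promoters of this length hold.
Hspa1a: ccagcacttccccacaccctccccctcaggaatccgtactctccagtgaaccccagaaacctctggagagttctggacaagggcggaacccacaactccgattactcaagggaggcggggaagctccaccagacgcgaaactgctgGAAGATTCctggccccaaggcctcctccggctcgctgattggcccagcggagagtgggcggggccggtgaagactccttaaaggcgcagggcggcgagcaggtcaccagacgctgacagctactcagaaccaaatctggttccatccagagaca
Hspa1b: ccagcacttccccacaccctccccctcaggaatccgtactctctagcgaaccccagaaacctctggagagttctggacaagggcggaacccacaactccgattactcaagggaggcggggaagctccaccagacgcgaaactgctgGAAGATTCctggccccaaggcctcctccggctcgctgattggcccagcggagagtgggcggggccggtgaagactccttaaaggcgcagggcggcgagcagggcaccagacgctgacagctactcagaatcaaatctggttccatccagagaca
The match begins 104 bases before the start in both. Of the other called genes with an entry, Steap4 holds a match and Inmt, Col8a1, Pcolce2, Timp3 and Clca3a2 do not. Of the other heat shock genes looked up, Hsph1 holds 3 matches, which partly overlap, and Dnajb1 none, while Hsp90aa1 and Hspa8 had no entry. The levels of Hsph1 and Hspa8 are not given here.

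Inmt, an enzyme that methylates amines, had no read at P1, 1 read at P7, and 175.8 and 473.6 CPM at P21. Its reads at P21 were at least 2281-fold above the P1 floor of 3 reads over the group (counting error only, edgeR adjusted p = 0.0206). That bound does not cover the sampling of cells, of which P1 had 31. Its reads came from 5 of 33 and 3 of 19 cells, and 1 cell held 90.9% of those of the male. The sum of alveolar fibroblast markers also was higher in both P21 mice, as given above, and its part in the level of Inmt was not tested.

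Steap4, a metal reductase, rested on 1 cell in each P21 mouse. It was at 0 and 0.540 CPM at P1, at 0 and 0.0405 at P7, and at 164.5 and 943.8 at P21 (log2 11.59, SE 1.32, edgeR adjusted p = 0.0118). A single cell held 100% of the reads in the female and all but 2 reads in the male. That cell also held 99.4% and 75.8% of the mouse's reads of Kcnj8, 77.5% and 85.2% of those of Abcc9 and 64.1% and 71.0% of those of Rgs5. Kcnj8 and Abcc9 are on the pericyte marker list. Values summed over the cells that the authors labelled pericytes differed from it in some genes. At P21 these had Steap4 at 0 in both mice and Kcnj8 at 27.9 and 90.6 CPM against 4641 and 3636 CPM in this cell. Their Lepr was at 460 and 531 CPM against 0 in this cell, and their Acta2 was low, at 93.0 and 131.3 CPM. What this cell is was not tested. Acta2 in this cell was at 3788 CPM in the female and 238 CPM in the male, against medians of 10622 and 13096 CPM in the other muscle cells. Its Myh11 was at 0 in both. Without these cells, an alternative chosen after seeing the data, 9 genes passed, 8 of the 10 among them, and Steap4 stood at log2 -1.61 (edgeR adjusted p = 0.953). Col8a1 was the other gene that no longer passed (adjusted p = 0.0513).

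**Figure D2:**
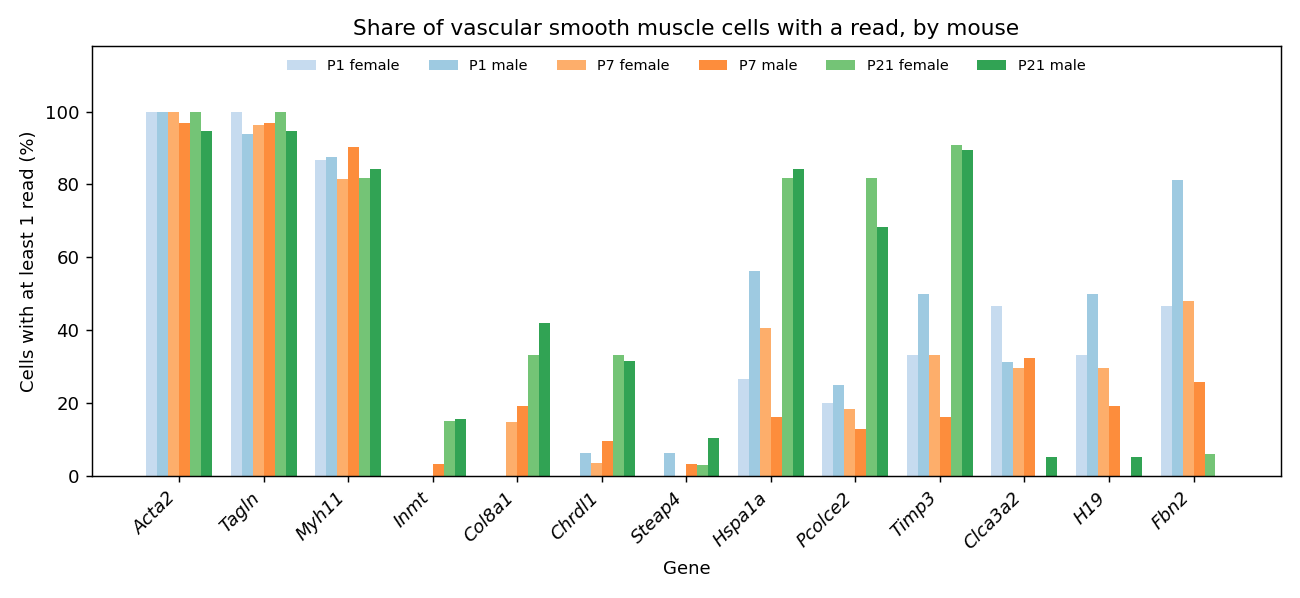
Percentage of vascular smooth muscle cells with at least 1 read of Acta2, Tagln, Myh11 and each of the 10 called genes, with a bar for each mouse. At P21 Timp3 was read in 30 of 33 and 17 of 19 cells and Steap4 in 1 of 33 and 2 of 19.

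Clca3a2, a secreted regulator of chloride channels, was at 498 and 1154 CPM at P1 and at 515 and 1078 CPM at P7. At P21 a single read was left, in the male. The ages P1 and P7 overlapped, and both P21 mice were below all of the others. The ratio of P1 to P21 was 31075 (95% interval 5577 to 1227460, counting error only; edgeR adjusted p = 0.000241). A read was found in 7 of 15 and 5 of 16 cells at P1, in 8 of 27 and 10 of 31 at P7 and in 0 of 33 and 1 of 19 at P21, and the 0 allows a share of cells with a read of up to 9.09%. One P1 cell held 84.4% of the male's reads. The relative Clca3a1, a near-identical copy, was at 17.6 and 35.1 CPM at P1 and at 0.295 and 0 at P21 (edgeR adjusted p = 0.731), so reads may have been split between them.

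H19 is an imprinted non-coding RNA of fetal tissue that is silenced after birth. It was at 391 and 396 CPM at P1, at 213 and 331 at P7, and at 1 read at P21. Both P7 mice lay below both P1 mice, and both P21 mice were near 0. The ratio of P1 to P21 was 14736 (95% interval 2644 to 582098, counting error only; edgeR adjusted p = 0.00248), with a read in 5 of 15 and 8 of 16 cells at P1, in 8 of 27 and 6 of 31 at P7 and in 1 of 52 at P21. Fbn2 encodes fibrillin-2, a microfibril protein used mainly before and around birth. It stood at 246.5 and 80.8 CPM at P1, 171.1 and 48.8 at P7, and 0.147 and 0 at P21, where 3 reads were left. The females were higher than the males at P1 and P7, and these ages overlapped. The ratio of P1 to P21 was 2030 (95% interval 694 to 9847, counting error only; edgeR adjusted p = 0.0383), and cells with a read went from 7 of 15 and 13 of 16 to 2 of 33 and 0 of 19.

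Beyond these 10, 6 genes with P1 and P21 mice that did not overlap had the smallest unadjusted p and did not pass. Fbln5, which links elastic fibres to cells, was at 1284 and 808 CPM at P1, 999.5 and 1299 at P7, and 154.2 and 42.9 at P21 (log2 -3.50, SE 0.606, edgeR adjusted p = 0.0988). Cxcl13, a chemokine, was at 110.9 and 73.8 CPM at P1, 172 and 237 at P7, and 0 and 0.702 at P21 (log2 -8.24, edgeR adjusted p = 0.0905). Timp4, named above, belongs here too. Cyp4b1, a cytochrome P450, had no read at P1 or P7 and was at 273.7 and 36.3 CPM at P21, from 5 of 33 and 2 of 19 cells. That is at least 1209-fold higher (counting error only, edgeR adjusted p = 0.163). Uchl1, a ubiquitin hydrolase, was at 204 and 39.9 CPM at P1, from 7 of 15 and 1 of 16 cells, and had no read at P21. That is at least 1510-fold lower (counting error only, edgeR adjusted p = 0.114). Fam81a was at 18.4 and 214.5 CPM at P1 and had 1 read at P21 (edgeR adjusted p = 0.0914).

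The middle point was compared with both ends. Between P1 and P7 no gene passed (0% of 12417; edgeR, 463 with an unadjusted p under 0.05; DESeq2 called 444). From P7 to P21, 6 genes rose and 5 fell, 0.0483% and 0.0403% of those tested, with 895 at an unadjusted p under 0.05 (edgeR); DESeq2 called 842. This comparison shares the P21 mice with that against P1, so its values are given only side by side. Timp3 rose by 4.47 on the log2 scale (adjusted p = 0.0141), Pcolce2 by 5.33 (0.0219) and Hspa1a by 6.05 (0.0441), and Steap4 and Inmt passed as well. Clca3a2, H19 and Fbn2 fell (adjusted p = 0.000245, 0.00325 and 0.0441). The number called was 4 without the P7 male, 5 without the P21 male, 18 without the P21 female, and 20 and 18 without the P7 hyperoxia female and male.

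Gpx3, Cxcl13 and Fbln2 passed from P7 to P21 without having passed against P1. Gpx3, a secreted glutathione peroxidase, was at 393.8 and 568.2 CPM at P1, 103.8 and 204.6 at P7, and 3880 and 2931 at P21. Its lowest values were those of the P7 mice. The rise from P7 was 4.48 on the log2 scale (SE 0.598, edgeR adjusted p = 0.0229), and the difference from P1 was 2.83 (adjusted p = 0.168). Cxcl13 fell by 9.32 on the log2 scale (SE 1.41, edgeR adjusted p = 0.0441). Fbln2, a fibulin of elastic fibres and basement membranes, was at 28.8 and 18.9 CPM at P1 and 44.5 and 304 at P7. It had no read at P21, at least 2089-fold lower than at P7 (counting error only, edgeR adjusted p = 0.0441).

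None of 20 contractile proteins passed between P1 and P21 (edgeR), where 0.0564% of all genes passed upward and 0.0242% downward. Both P21 mice stood apart from both P1 mice, without overlap, upward in 4 (20%) and downward in 2 (10%) of them. Over all genes these shares were 17.8% and 17.1%, which also hold for the lists below. The lists were written with earlier results of these data known, so a share above these values is not a test of a list. Their median log2 difference was 0.42, against 0.08 over all genes. The smooth muscle actin Acta2 was at 18323 and 9875 CPM at P1, 20325 and 18061 at P7, and 15403 and 22689 at P21 (log2 0.48, SE 0.427, adjusted p = 0.813). The P1 male was the lowest mouse and the other 5 overlapped. The smooth muscle myosin heavy chain Myh11 was at 1100 and 447 CPM at P1, 680 and 1099 at P7, and 1348 and 1456 at P21 (log2 0.91, edgeR adjusted p = 0.745). Myl9, the regulatory light chain, was at 6387 and 3045 CPM at P1 and at 5257 and 8014 at P21, and Cnn1, a calponin, at 870 and 69.7 and then at 739 and 665. For Mylk, the kinase that switches on contraction, the P21 mice at 1051 and 1861 CPM were above the P1 mice at 554 and 531 (log2 1.36, SE 0.459, edgeR adjusted p = 0.64).

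Of 19 contractile regulators tested none passed, 6 (31.6%) stood apart upward and 2 (10.5%) downward, against 17.8% and 17.1% of all genes. The median was 0.09. Pde5a, which breaks down cyclic GMP and so limits relaxation, was at 94.0 and 174.7 CPM at P1 and at 421 and 371 at P21 (log2 1.66, edgeR adjusted p = 0.665). Gata6, a transcription factor of smooth muscle, was at 204.9 and 100.2 CPM at P1 and at 26.9 and 9.48 at P21 (log2 -3.08, edgeR adjusted p = 0.64). The serum response factor binds the CArG box, a motif of many smooth muscle promoters. It was searched only as CCWWWWWWGG, with W for A or T, so boxes that depart from these letters were not counted. Of 17 contractile genes with a promoter entry, Myl9 and Vcl held this pattern on either strand within the 300 bases, and 1.63% of all promoters did. Actg2, Myh11 and Tagln had no entry. The Myl9 promoter, chr2:156775214-156775513 on the plus strand of GRCm38.p6 from RefSeq, is shown because Myl9 was among the most abundant contractile genes; capitals mark the box, 161 bases before the start.
Myl9: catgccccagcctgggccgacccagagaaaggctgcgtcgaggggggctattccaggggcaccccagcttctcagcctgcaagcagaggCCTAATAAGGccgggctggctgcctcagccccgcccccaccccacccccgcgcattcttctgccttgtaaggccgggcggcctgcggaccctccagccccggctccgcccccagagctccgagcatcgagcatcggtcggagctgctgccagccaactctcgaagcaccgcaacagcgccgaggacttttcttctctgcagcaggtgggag
No match says only that the letters are not in this window.

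**Figure D3:**
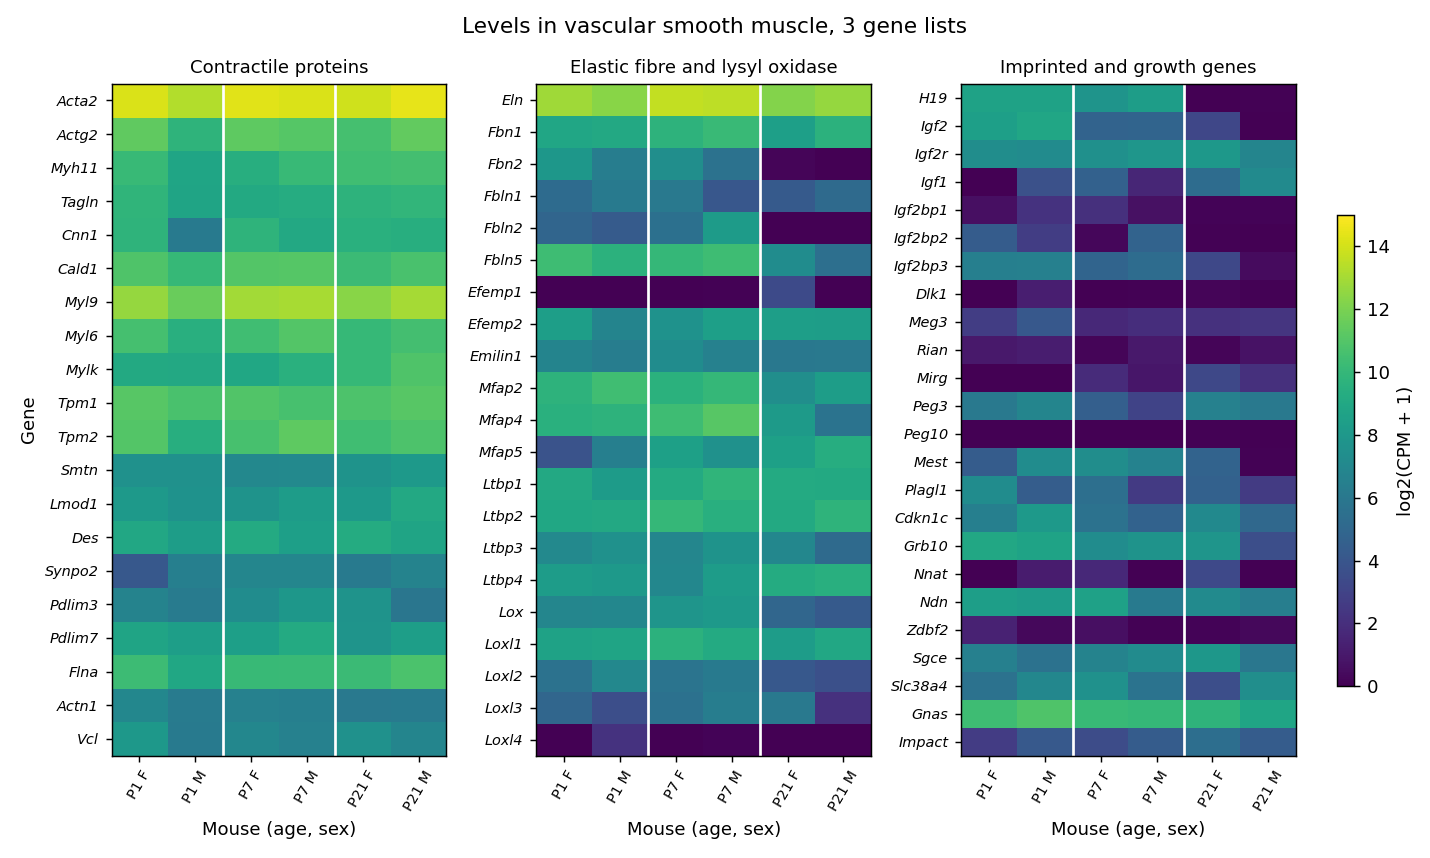
Level of each gene of the contractile, elastic fibre and imprinted lists as log2(CPM + 1), coloured from dark (low) to yellow (high), with a column for each mouse and white lines between the ages. Acta2 and Myl9 are bright in every column and Cnn1 is darkest in the P1 male, while Fbn2, Fbln2 and H19 are dark in both P21 columns.

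Elastic fibres give vessels their recoil. Of 20 elastic fibre and lysyl oxidase genes tested, Fbn2 fell and none rose (edgeR). An unadjusted p under 0.05 was found in 6, all lower, against 386 of 12417 lower over all genes. Both P21 mice were below both P1 mice in 10 (50.0%), against 17.1% of all genes. The list was written with earlier results known, so these shares are not a test of it. The median was -0.36. Elastin itself, Eln, was highest in the P7 mice, at 12833 and 11865 CPM, against 7329 and 5122 at P1 and 4842 and 6321 at P21, where P1 and P21 overlapped (log2 -0.18, edgeR adjusted p = 0.962). Fbn1, the adult fibrillin, was at 465 and 521 CPM at P1, 830 and 1150 at P7, and 347 and 803 at P21. The microfibril genes Mfap2 (821 and 1374 CPM at P1, 167 and 319 at P21; log2 -2.19, edgeR adjusted p = 0.276) and Mfap4 (735 and 828, then 284 and 50.7) were lower in both P21 mice. Lox, which crosslinks elastin and collagen, was at 119 and 123 CPM at P1, 229 and 278 at P7, and 29.5 and 18.1 at P21 (log2 -2.32, edgeR adjusted p = 0.633). Mfap5, a further microfibril gene, went the other way, at 13.3 and 87.6 CPM at P1, 368 and 195 at P7 and 366 and 657 at P21. Its P1 reads came from 2 of 15 and 1 of 16 cells.

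In the 29 interstitial matrix genes Col8a1 rose and none fell (edgeR). Of them 6 (20.7%) stood apart upward and 5 (17.2%) downward, near the 17.8% and 17.1% of all genes, and the median was 0.06. Col3a1 was at 1709 and 1213 CPM at P1 and at 3473 and 3824 at P21 (log2 1.30, edgeR adjusted p = 0.64), and Col1a1 at 2660 and 2327 and then at 1441 and 888 (log2 -1.10, adjusted p = 0.71). The P21 mice were above the P1 mice for Col3a1 and below them for Col1a1, and neither gene passed. Fn1, fibronectin, was at 678 and 701 CPM at P1, 988 and 1467 at P7, and 156 and 133 at P21 (log2 -2.25, edgeR adjusted p = 0.223). Of 20 basement membrane genes none passed, 7 (35%) stood apart upward and 2 (10%) downward, and the median was 0.16. Lama4, a laminin of vessels, was at 107 and 233 CPM at P1, 87.6 and 167 at P7, and 623 and 796 at P21 (log2 2.14, edgeR adjusted p = 0.451).

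Of 23 imprinted and growth genes H19 fell and none rose (edgeR). Both P21 mice were below both P1 mice in 11 (47.8%) of them, against 17.1% of all genes, with a median of -1.61. Igf2, the fetal growth factor next to H19, was at 350 and 465 CPM at P1, 26.4 and 27.6 at P7, and 8.31 and 0 at P21. Both P7 mice lay well below both P1 mice, and P21 against P1 did not pass (edgeR adjusted p = 0.393). Gnas was at 1317 and 1898 CPM at P1 and at 850 and 451 at P21, and Ndn at 341 and 305 and then at 147 and 83.4. Of 27 cell division genes none passed, and 2 (7.41%) stood apart upward and 7 (25.9%) downward, against 17.8% and 17.1% of all genes. The median was -1.17, or 0 with genes at 0 reads set to their bound. The replication licensing gene Mcm2 was at 17.4 and 9.00 CPM at P1, 103.8 and 51.7 at P7, and under 0.1 in both mice at P21 (edgeR adjusted p = 0.541).

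Of 25 ion channel and calcium genes none passed, and 7 (28%) stood apart upward and 4 (16%) downward, against 17.8% and 17.1% of all genes. The median was 1.19. Kcnk3, a potassium channel of lung arteries, was at 250 and 176 CPM at P1, 326 and 260 at P7 and 622 and 567 at P21 (log2 1.49, edgeR adjusted p = 0.649). Itpr1, a calcium release channel, was at 11.7 and 5.31 CPM at P1, 94.9 and 63.8 at P7, and 232 and 73.3 at P21. Ano1, a calcium-gated chloride channel, was at 21.2 and 99.8 CPM at P1 and at 204 and 435 at P21. Kcnj8, Abcc9 and Rgs5 were also higher at P21, but most of their reads came from the Steap4 cells described above. Of 20 vascular tone receptors and their regulators none passed, 2 (10%) stood apart each way, and the median was 0.11. The endothelin receptor gene Ednra was at 403 and 761.9 CPM at P1 and at 1101 and 396 at P21, and the ages overlapped. Of 12 Notch genes none passed, 3 (25%) stood apart each way, and the median was -0.43. The receptor Notch3 was at 532 and 732 CPM at P1 and at 529 and 345 at P21, and its target Heyl at 755.5 and 417.7 and then at 848 and 821.

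Of 21 TGF-beta and BMP genes none passed (edgeR; the list did not hold Chrdl1, which rose), 8 (38.1%) stood apart upward against 17.8% of all genes and 2 downward, and the median was 0.75. Id4, a target of BMP signals, was at 125 and 38.6 CPM at P1 and at 293 and 435 at P21. Of 18 PDGF and vascular growth factor genes none passed, and 6 (33.3%) stood apart upward and 4 (22.2%) downward, against 17.8% and 17.1% of all genes. The median was 0.58. Pdgfrb, the receptor for PDGF-B, was at 371 and 468 CPM at P1, 279 and 385 at P7, and 1015 and 1718 at P21 (log2 1.66, edgeR adjusted p = 0.475). Cxcl12, a chemokine, was at 2822 and 2740 CPM at P1, 1057 and 787 at P7 and 177 and 495 at P21 (log2 -3.04, SE 0.612, edgeR adjusted p = 0.185).

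The remaining lists described stress and environment. Of a list of 20 immediate early and stress genes, only the heat shock gene Hspa1a, described above, passed (edgeR). In that list 7 (35%) stood apart upward and 3 (15%) downward, against 17.8% and 17.1% of all genes, and the median was 0.31. Fos was at 8550 and 9821 CPM at P1, 3830 and 3356 at P7, and 6562 and 7336 at P21. Both P7 mice were the lowest. Of 20 circadian and glucocorticoid genes none passed, 7 (35%) stood apart upward and 2 (10%) downward, and the median was 1.54. The glucocorticoid targets Sgk1 (0.184 and 26.0 CPM at P1, 96.1 and 412.5 at P21; edgeR adjusted p = 0.316) and Klf9 (12.5 and 55.7, then 171.9 and 294.6) were higher in both P21 mice. Of 20 MHC class I and interferon genes none passed, 6 (30%) stood apart upward and 2 (10%) downward, and the median was 0.77. H2-K1 was at 26.2 and 86.9 CPM at P1 and at 228 and 433 at P21. Of 23 antioxidant enzymes none passed, 6 (26.1%) stood apart upward and 4 (17.4%) downward, and the median was 0.03. Sod3, the extracellular superoxide dismutase, was at 447 and 448 CPM at P1, 511 and 417 at P7, and 1576 and 2487 at P21 (log2 2.16, SE 0.474, edgeR adjusted p = 0.276).

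Pericytes of the same mice (245 cells) were set beside the muscle cells to see which changes differed between them. The change from P1 to P21 differed between the classes for 3 of 12991 genes (0.0231%; edgeR, interaction term with the classes of a mouse in 1 fit), Mfap5, Actg2 and Acta2, all more upward in the muscle cells. At an unadjusted p under 0.05 there were 387, and DESeq2 called 430. The levels here were scaled together with those of pericytes and so differ slightly from those above. Acta2 was at 17870 and 9723 CPM in the muscle cells at P1 and at 14795 and 21783 at P21, while in pericytes it was at 1231 and 1420 at P1, 4665 and 1743 at P7, and 93.0 and 131.3 at P21. The muscle cells overlapped between ages and the pericytes did not, and the changes differed by 4.03 on the log2 scale (SE 0.530, adjusted p = 0.0447).

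Actg2, the gamma smooth muscle actin, was at 2481 and 859 CPM in the muscle cells at P1 and at 1480 and 2544 at P21. In pericytes it was at 37.5 and 90.7 CPM at P1 and had 2 reads at P21 (edgeR adjusted p = 0.0114 for the difference). Mfap5 was at 13.0 and 86.3 CPM in the muscle cells at P1 and at 352 and 631 at P21, and in pericytes at 181 and 242 at P1, at 0 in both mice at P7 and at 8 reads at P21 (adjusted p = 0.0114). So the order of the 2 ages was opposite in the 2 classes for Mfap5. In the muscle cells it was read in 2 of 15 and 1 of 16 cells at P1 and in 12 of 33 and 5 of 19 at P21. At P1 a single muscle cell held 86.8% and 100% of its reads, so the P1 level rested on few cells. Without the P21 female or the P21 male no gene passed, and without the P7 female 5 did. Acta2 and Actg2 encode near-identical proteins, and reads may be split between them.

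**Figure D4:**
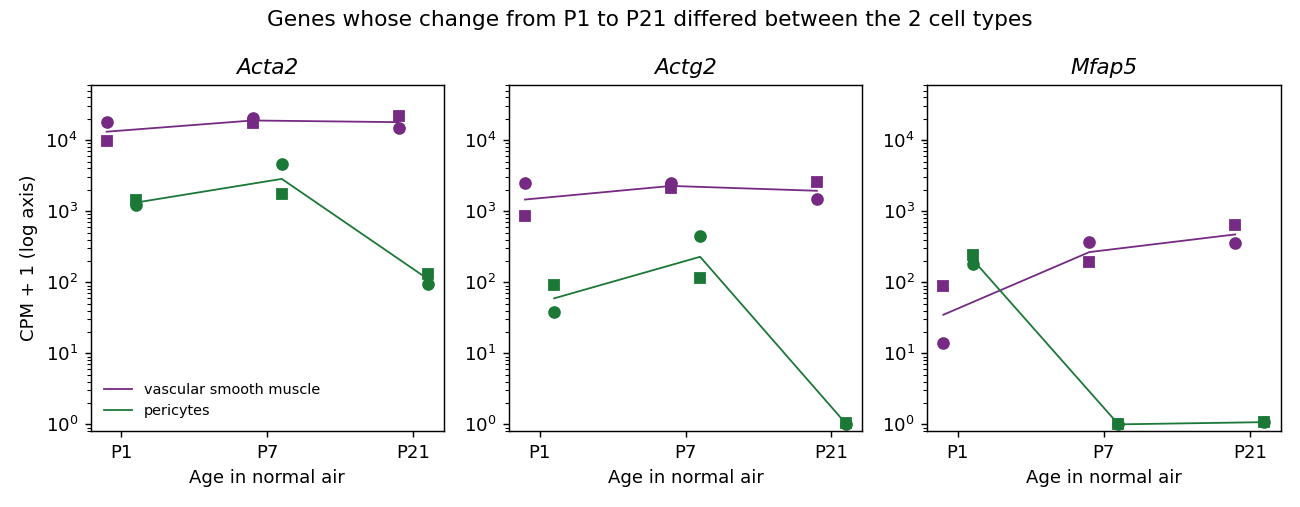
Level of Acta2, Actg2 and Mfap5 as CPM plus 1 on a log axis in vascular smooth muscle (purple) and pericytes (green) by age; circles are females, squares males, and lines join the means of the log values. Acta2 in pericytes is at 93.0 and 131.3 CPM at P21, while its lowest level in the muscle cells is 9723 CPM.

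Against airway smooth muscle (319 cells, the early and later labels joined) no gene of 13584 passed for a difference in its change from P1 to P21 (0%; edgeR, smallest adjusted p = 0.056; 605 at an unadjusted p under 0.05; DESeq2 called 632). Clca3a2, which fell in vascular muscle, was at or under 1.11 CPM in every airway muscle library. Igfbp5, an inhibitor and carrier of insulin-like growth factors, was at 638 and 407 CPM in vascular muscle at P1 and at 334 and 1120 at P21, and in airway muscle at 65.4 and 55.7 and then at 2134 and 2776 (adjusted p = 0.056). Without the P21 male 4 genes passed, and without the P7 female or the P7 male 2 did.

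Vascular smooth muscle made up 2.37% and 2.81% of the cells of the P1 mice (95% Wilson intervals 1.44 to 3.87 and 1.74 to 4.51), 4.46% and 5.44% at P7, and 6.30% and 6.11% at P21 (4.52 to 8.71 and 3.95 to 9.34). Both P21 mice were above both P1 mice, and the P7 mice lay between. The difference was 1.27 on the log2 scale (SE 0.507, edgeR on cell numbers, adjusted p = 0.0196), in a comparison where 12 of 14 subtypes (85.7%) passed. It did not pass when any 1 of the 4 mice was left out (log2 1.14 to 1.38) or without the term for sex, and it passed with only the mesenchymal sort (1.25) and with TMM scaling over subtypes, where it was 2.84 (adjusted p = 0.000135, edgeR). These are shares of sorted cells, and Wilson intervals cover counting error only. At 50000 reads a cell, the median cell held 2757 and 2803 genes at P1, 1720 and 1508 at P7, and 1880 and 1372 at P21. Without thinning the medians were 3114 and 3582, 2254 and 2018, and 2596 and 1907. Both P1 mice were above the other 4 either way, and no test was run.

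**Figure D5:**
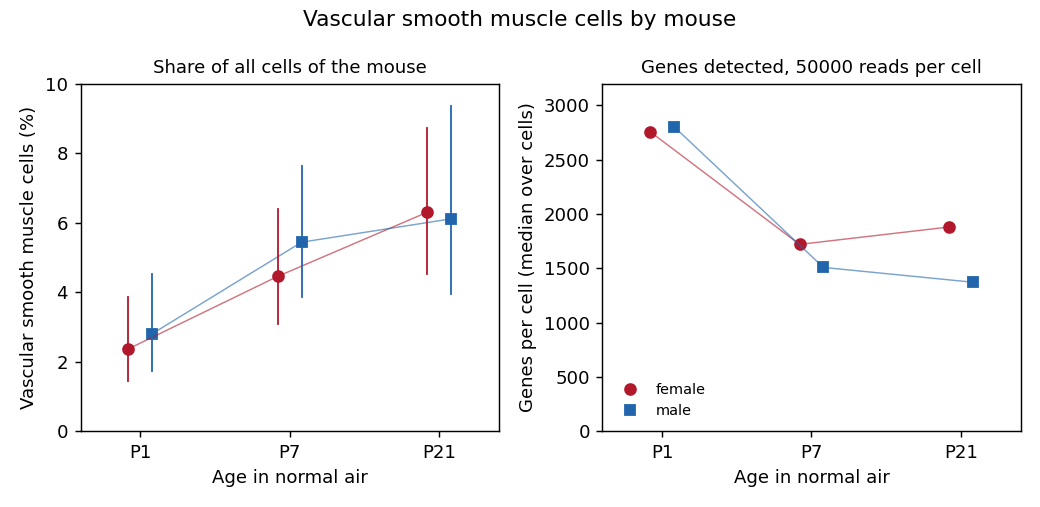
Vascular smooth muscle as a percentage of the cells of each mouse with 95% Wilson intervals, and the median number of genes per vascular smooth muscle cell at 50000 reads, by age. The share is 2.37% and 2.81% at P1 and 6.30% and 6.11% at P21, and genes per cell are highest at P1.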

How the data were processed

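The counts deposited by the authors are whole reads per gene and cell, not normalized, from plate-based Tn5 libraries, per the labels' protocols; no molecular identifiers are named. STAR 2.5.2b, HTSeq 0.10 and build GRCh38 are listed in the submitters' processing notes, although the cells are from mice; the files give no coordinates, and the counting strand is not given in the sources used here. The table held 18072 genes, none mitochondrial, and 59 columns matching no labelled cell were not used. Subtypes are the authors' labels; no doublet caller was run. Counts were summed per mouse over cells (at least 10 a mouse) and tested in R 4.3.3 with edgeR 4.0.16 (TMM, filterByExpr, two-sided quasi-likelihood test, terms for group and sex, Benjamini-Hochberg adjustment over all genes tested, threshold 0.05). CPM use TMM-normalized library sizes. In the comparisons with pericytes and airway muscle both classes of each mouse entered 1 fit. DESeq2 1.42.0, other scalings and filters, thinning to 50000 reads, only the mesenchymal sort and leaving out mice were alternatives. Each group has 1 female and 1 male, and the age fits hold a term for sex. Their residual spread is therefore how the difference between female and male varied over the fitted groups, hyperoxia among them. edgeR also moderates this spread by that of the other genes. The p-values cover only these mice and do not measure the spread between mice of the same age and sex.

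Named genes are the genes that passed, moved the same way in both sexes and averaged 10 CPM or more at P1 or P21, filled up to 8 a direction by the smallest unadjusted p among genes of at least 50 CPM whose mice did not overlap, plus list members. A gene "stood apart" where both P21 mice lay on the same side of both P1 mice. The 16 gene lists, the members and the tests were chosen with earlier results of these data known. A fold against a group without reads uses a floor of 3 reads over the group, and a ratio against 1 to 3 reads has an exact conditional 95% interval. These reflect only the error of counting reads and not the sampling of cells, and amplified copies of a molecule count as separate reads. The tests were tried on simulated counts.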

Additional observations from a re-analysis of the deposited data

Results flagged for a closer look

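For 3 genes the change from P1 to P21 differed between vascular smooth muscle and pericytes of the same mice in edgeR's interaction test. The adjusted p was 0.0114 for Mfap5, 0.0114 for Actg2 and 0.0447 for Acta2. Mfap5 was higher at P21 in the muscle cells of both mice and lower in the pericytes of both. Its P1 level in the muscle cells rested on reads in 2 of 15 and 1 of 16 cells. Acta2 and Actg2 overlapped between the ages in the muscle cells and were lower at P21 in both pericyte libraries. None of the 3 passed when the P21 female or the P21 male was left out.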

How the results depend on the processing

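Genes called between P1 and P21 numbered 28 without a filter, 859 by DESeq2, 6 without the term for sex, 3 with only the mice of the contrast and 31 after thinning, and 2 to 25 when each mouse was left out. Between P1 and P7 they numbered 1 without a filter, 444 by DESeq2 and 1 after thinning, and 0 to 1 without each mouse. From P7 to P21 they numbered 39, 842 and 39 in the same order, 7 with only the mice of the contrast, and 4 to 20 without each mouse. For the difference from pericytes the counts were 16 without a filter, 430 by DESeq2 and 24 after thinning, and 0 to 5 without each mouse, and for airway smooth muscle 15, 632 and 81, and 0 to 4. The log2 difference of the share of cells was 1.26 without the term for sex and 1.14 to 1.38 without each mouse, none of which passed, and 1.25 with only the mesenchymal sort and 2.84 with TMM scaling over subtypes, both of which passed. Steap4 turned to log2 -1.61 without the P21 cell of each mouse that held its reads. With DESeq2 size factors in edgeR 10, 0, 11, 3 and 0 genes passed. With only the mesenchymal sort 7, 0 and 9 passed in the 3 age comparisons. The alternatives without the hyperoxia mice, without the Steap4 cells and with only genes read in at least 5 cells of both mice of an age were chosen after seeing the data; the last left 5533 genes, of which 8 passed between P1 and P21, and Inmt and Steap4 were not among the genes tested. The causes of these shifts were not tested. Only 31 cells at P1 limit the depth behind genes read in few cells.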

Other observations

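The cardiac actin gene Actc1 split the vascular smooth muscle cells, a pattern noticed after the values were seen and given without a test. Cells with at least 100 CPM of Actc1 numbered 8 of 15 and 6 of 16 at P1, 11 of 27 and 15 of 31 at P7, and 14 of 33 and 4 of 19 at P21, and 0 to 3 cells a mouse lay near that level. In all 6 mice the summed Acta2 level was higher in the Actc1-rich cells than in the rest, as at P21 with 22995 against 7971 CPM in the female and 36838 against 14062 CPM in the male. The PDGF receptor gene Pdgfrb was lower in the Actc1-rich cells of all 6 mice, at P7 with 136 against 393 CPM in the female and 86.7 against 524 CPM in the male. Gpx3 was lower in them too: at P21 it stood at 2059 against 4715 CPM in the female and 8.21 against 3050 CPM in the male. At P1 its levels were closer, at 346 against 433 CPM in the female and 589 against 604 CPM in the male. Timp3 at P21 was at 1537 against 4005 CPM in the female and 1706 against 2569 CPM in the male, so both classes carried it. Its order varied at the younger ages. The Actc1-rich cells were higher in the P1 female (154 against 0 CPM), the P7 female (136 against 103) and the P7 male (218 against 125). They were lower in the P1 male (159 against 236).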
